A study of Mus musculus with 44 samples.

Results

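Ionotropic glutamate receptors are the channels through which glutamate excites neurons, and this account follows the mRNAs of 10 of their subunits through mouse hippocampus, cortex and cultured cortical neurons. The members were chosen by name: the AMPA receptor subunits Gria1, Gria2, Gria3 and Gria4, the NMDA receptor subunits Grin1, Grin2a, Grin2b and Grin3a, and the kainate receptor subunits Grik2 and Grik5. They are 10 of 17158 transcripts that the files list, 1 representative transcript per gene, and all 10 were found. RNA-seq gave their RNA levels, ribosome-protected fragments (RPF) gave ribosome occupancy, and tail sequencing (TAIL-seq or PAL-seq) gave tag counts and poly(A)-tail lengths.

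The study used C57BL6J mice. Hippocampus of 1 adult male was set beside E16 hippocampi, and adult cortex came from 1 male. Cortical neurons were dissociated from pups of both sexes at postnatal day 0 to 1, treated for 24 h with AraC, which limits dividing cells, and kept for 10 or 14 days in vitro (DIV10, DIV14). The DIV14 cultures were left unstimulated, given BDNF or glutamate plus glycine (glu/gly) for 30 min, or transduced at DIV5 with a lentivirus that expressed GFP from the synapsin promoter, alone (GFP) or with miR-1 or miR-155. The DIV10 cultures were unstimulated or depolarised with KCl for 10 or 30 min. Visual cortex came from 8 mice of 6 to 7 weeks that had spent 1 week in the dark, of which 4 then saw light for 1 h, and only PAL-seq was used for them. From every culture and tissue, 1 library was made per assay, so comparisons between single libraries carry no replicate check and their 95% intervals cover counting error only. By the study's methods, 6 of the culture samples came from 2 preparation batches of 3, each batch made with pups of 2 litters. The methods do not name these 6, though the study elsewhere speaks of 6 DIV14 cultures, the number of DIV14 cultures here. Cultures thus shared litters and batches that no fit here could account for, so p-values over cultures measure the spread between these libraries, which may be technical and may be too small.

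AMPA receptors are tetramers that carry fast excitatory current, and the presence of Gria2 sets whether the channel passes calcium. NMDA receptors pair the obligatory Grin1 subunit with Grin2 or Grin3 subunits and open only when glutamate and a co-agonist bind while the membrane is depolarised. In rodent forebrain, Grin2b predominates early in life and Grin2a joins it as synapses mature. Kainate receptors contain Grik2, a subunit that can form channels alone, and Grik5, a high-affinity subunit that needs a partner.

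In mm10 coordinates, Gria1 (NM_001113325) lies at chr11:57011571-57330244, Gria2 (NM_001083806) at chr3:80681450-80804227, Gria3 (NM_001281929) at chrX:41400819-41678601 and Gria4 (NM_019691) at chr9:4417893-4796234. Grin1 (NM_008169) lies at chr2:25291177-25319187, Grin2a (NM_008170) at chr16:9567901-9996083, Grin2b (NM_008171) at chr6:135713221-136173615 and Grin3a (NM_001276355) at chr4:49661611-49846023. Grik2 (NM_010349) lies at chr10:49093680-49790161 and Grik5 (NM_008168) at chr7:25009849-25075694. Their untranslated regions differed widely. The 3′ UTR of Grin2b was 18877 nt and that of Grin2a 9926 nt, against a median of 915 nt over 17004 transcripts, and those of Grik2 (7632 nt) and Gria2 (7096 nt) were also long. Grin1 had 1191 nt and Grik5 520 nt. In the 5′ UTR, Grin2b held 9 upstream ATG triplets and Grin2a 7, whereas Grin1 held 0; 49.1% of all transcripts held at least 1. Grik5 stood out by 80.3% G or C at codon wobble positions, at the 97.2th percentile.

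Because a lentivirus delivered miR-155, matches to its seed are shown for the members that have them. The mature sequence (RefSeq, GRCm38.p6, chr16:84714143-84714165, plus strand) has its seed, bases 2 to 8, in capitals, and each 3′ UTR stretch, written 5′ to 3′ on the minus strand, has the 7 bases complementary to the seed in capitals.
miR-155-5p: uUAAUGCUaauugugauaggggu
Gria2, chr3:80687561-80687580: tgttaattaaaaAGCATTAa
Gria2, chr3:80684719-80684738: gtttataacactAGCATTAg
Grin2a, chr16:9574019-9574038: aaggcacccaatAGCATTAt
Grin2b, chr6:135719620-135719639: acagatcagagaAGCATTAt
Grin2b, chr6:135715094-135715113: caataggccaggAGCATTAg
The letters AGCATTA, searched on the transcript strand, occurred in the 3′ UTR of 7.90% of 17004 transcripts and in 14.1% of those with at least 1 kb of 3′ UTR. The other 7 members had no match. A match describes letters and shows no target.

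RNA-seq reads on genes numbered 448022 to 2111244 in the cultures, 1709163 in adult cortex and 7280299 and 7689624 in adult and embryonic hippocampus, and RPF reads 2812215 to 23212489. Levels below are CPM, a gene's reads or tags scaled to a library total of 1000000 on genes, or, between genes, CPM per kb of counted coding sequence (per kb). The labels did not say whether counting used strand. As genes, Grin1 overlaps Grin1os and Lrrc26, Grik5 overlaps Zfp574 and Grin3a contains Ppp3r2. Zfp574 starts at 25075674, beyond the end of the counted Grik5 transcript at 25072369. Lrrc26 ends at 25291193 and meets Grin1, on the minus strand from 25291177, only in its 3′ UTR. Neither thus lies on counted coding sequence. Reads of Grin1os and Ppp3r2, and tags of Lrrc26, could not be told apart from those of Grin1 and Grin3a. All 7 neuron markers were detected in each RNA-seq library. In every bulk sample, fewer cells that express a gene and less RNA per cell cannot be told apart.

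Between embryonic and adult hippocampus, the widest separation in RNA was that of the NMDA subunit Grin2a. Grin1 and the AMPA subunit Gria3 followed, with overlapping intervals. Grin2a, the subunit of mature synapses, was at 4.16 CPM of RNA in the embryo (32 reads) and 234.6 in the adult (1708 reads), a 56.4-fold difference (95% interval 39.8 to 82.7). Grin1, present in every NMDA receptor, went from 56.4 to 841.7 CPM (14.9-fold, 13.5 to 16.5). Grin3a, a subunit that lowers calcium permeability, went from 4.55 to 33.4 CPM (7.33-fold, 5.13 to 10.8). Grin2b differed least of the 4 NMDA subunits, at 182.2 CPM in the embryo and 909.9 in the adult (4.99-fold, 4.71 to 5.29).

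The AMPA subunits were also higher in the adult hippocampus, except that Gria4 stayed within 2-fold. Gria1 RNA was at 245.5 CPM in the embryo and 1506.3 in the adult (6.13-fold, 5.84 to 6.45). Gria2 was at 113.4 and 906.0 CPM (7.99-fold, 7.44 to 8.58), and Gria3 at 17.8 and 251.5 CPM (14.1-fold, 11.9 to 16.9). Gria4, an early subunit of hippocampal neurons, was at 38.4 and 64.7 CPM (1.69-fold, 1.45 to 1.96). Of the kainate subunits, Grik5 was 2.03-fold higher in the adult (210.7 and 427.7 CPM) and Grik2 lower, at 104.4 CPM in the embryo and 62.8 in the adult (0.601-fold, 0.535 to 0.675). In RNA, 8 of 10 members were past 2-fold higher and 0 past 2-fold lower, where 19.7% of 8367 genes tested were higher and 27.6% lower. On the authors' RPM scale the members were 7 higher and 1 lower, since Grik5 fell within 2-fold (log2 change 0.70) and Grik2 was past it (−1.05). The median fold was 6.71 for the members.

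Ribosome footprints gave a wider contrast than RNA for Grin1, Grin2a and Grin3a, and turned it for Gria4 and Grik5. Grin1 RPF went from 51.4 CPM to 1489.8 (29.0-fold, 27.4 to 30.8). Grin2a had 5789 RPF reads in the adult and 0 in the embryo, which against a floor of 3 reads is at least 2068-fold higher. Grin3a had 266 reads in the adult and 2 in the embryo (142.5-fold, 39.1 to 1183). Absence at this RNA level was not rare: 27.1% of 634 genes with embryonic RNA within 1.25-fold of Grin2a also had 0 RPF reads, though their median was 45.5 reads. Gria1 (6.68-fold), Gria2 (8.27-fold), Gria3 (16.2-fold) and Grin2b (3.99-fold) were higher by similar amounts to their RNA. Gria4 RPF was 0.745-fold (0.674 to 0.823), Grik5 0.807-fold (0.751 to 0.868) and Grik2 0.417-fold (0.381 to 0.456) of the embryonic value. So 7 of 10 were past 2-fold higher in RPF and 1, Grik2, lower, against 23.6% and 33.0% of 8365 genes.

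**Figure D1:**
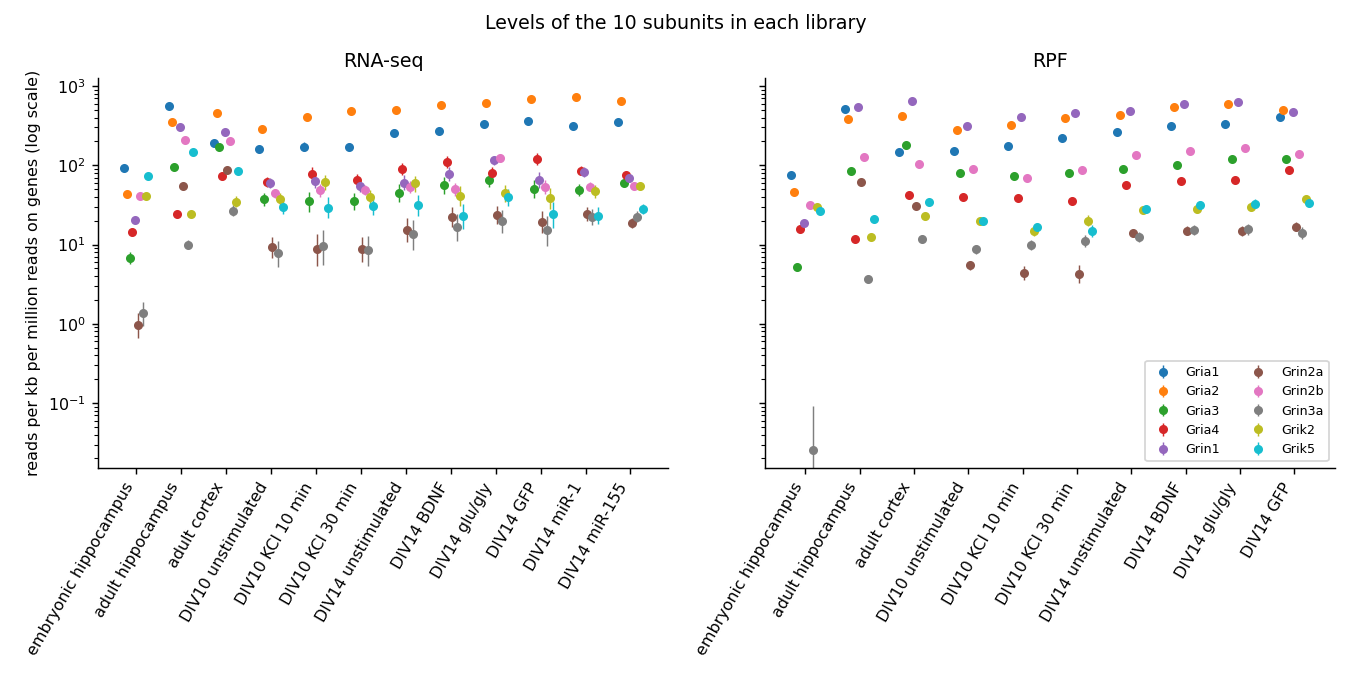
Level of each subunit in each RNA-seq library (left) and RPF library (right), in CPM per kb of counted coding sequence, on a log scale; bars are 95% counting intervals. Grin2a and Grin3a lie lowest in the embryonic hippocampus, and Grin2a, with 0 RPF reads there, has no point on the right.

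Marker genes of several cell types differed between both hippocampi as well. The sum of 7 neuron markers was 2112 CPM in the embryo and 5191 in the adult. Their median fold was 9.39, with 6 of the 7 past 2-fold higher and 1 past 2-fold lower. Progenitor markers summed to 1125 CPM in the embryo and 48.1 in the adult, and oligodendrocyte markers to 25.4 and 1026, with Mog at 0 in the embryo. The part of cell composition in the subunit differences was not tested.

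Other genes of the receptor family and its partners, from a fixed list, moved mostly the same way. Of 4 other ionotropic or delta subunits tested, 3 were past 2-fold higher in adult RNA: Grin2c 8.72-fold, Grid1 4.09-fold and Grik4 3.94-fold. Of 18 auxiliary or trafficking proteins tested, 11 were higher and 1 lower. Nsf, an ATPase that binds Gria2, was 18.1-fold higher, and the AMPA auxiliary subunits Cacng8 and Cacng3 each 11.8-fold, whereas Cacng4, of the same TARP family, was 0.165-fold. In RPF, Neto1, a kainate and NMDA receptor partner, had 717 reads in the adult and 1 in the embryo, Cacng3 was 51.1-fold and Nsf 16.9-fold higher, and Cacng7 (0.0550-fold), Cacng4 (0.120-fold) and Cnih3 (0.384-fold) were the lowest; 11 of the 18 were past 2-fold higher and 4 lower. Of the other subunits in RPF, Grin2c was 18.0-fold, Grid1 16.4-fold and Grik4 4.52-fold higher, and Grik3 was 0.433-fold.

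The shares of the NMDA genes show which subunit dominated in each sample. Per kb of RNA, Grin2b made up 64.6% of the 4 genes in embryonic hippocampus and 36.0% in the adult, while Grin1 went from 31.8% to 52.9% and Grin2a from 1.49% to 9.39%. In RPF, Grin1 was 36.8% in the embryo and 73.7% in the adult, and Grin2b 63.1% and 17.4%. Adult cortex had 81.4% Grin1 in RPF. Among the AMPA genes, Gria1 led in hippocampal RNA, with 58.6% in the embryo and 54.6% in the adult, whereas Gria2 led in adult cortex (51.3%) and in every culture (52.4% to 63.6%). Summed per kb, AMPA over NMDA RNA was 1.79 in adult hippocampus, 1.54 in adult cortex, 2.44 in embryonic hippocampus and 3.88 to 7.89 in the cultures, but over RPF the cultures had only 1.23 to 1.73.

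**Figure D2:**
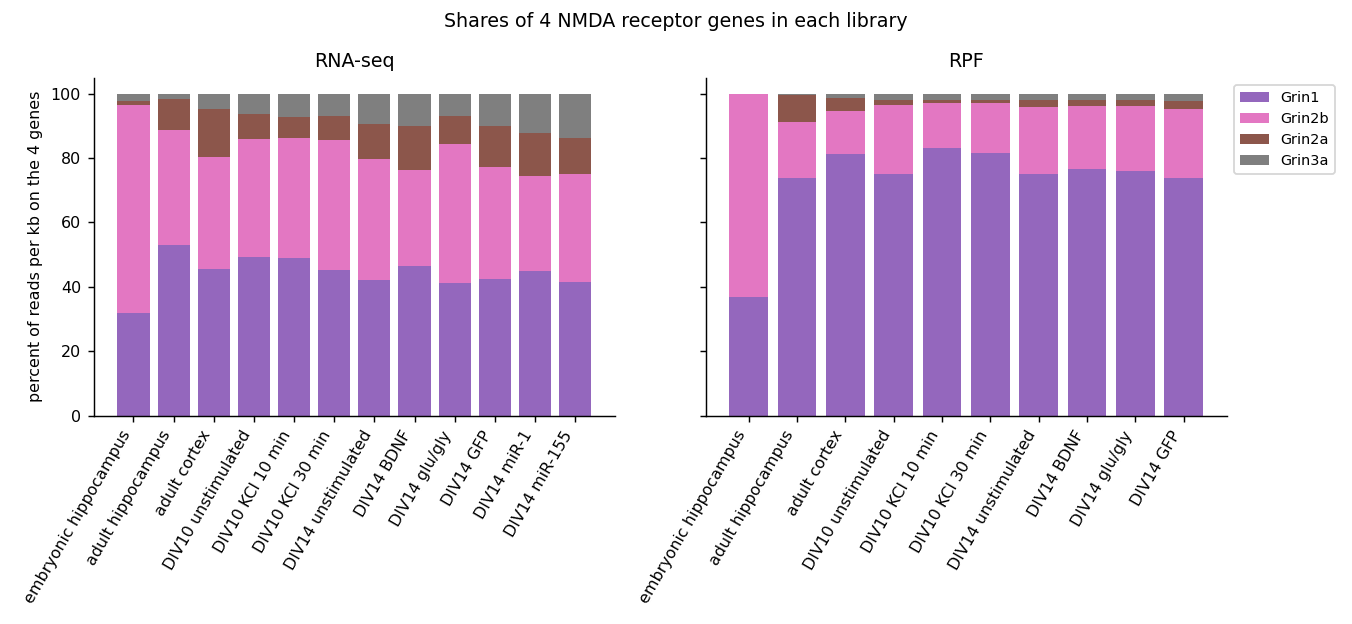
Share of Grin1, Grin2b, Grin2a and Grin3a in the reads per kb that fell on these 4 genes, in percent, for each RNA-seq (left) and RPF (right) library. Grin2b takes most of the embryonic bar in both assays, and Grin1 takes most of every other RPF bar.

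Adult cortex and adult hippocampus differed chiefly in Gria1 and in the scarcer subunits. Gria1 RNA was at 511.9 CPM in cortex and 1506.3 in hippocampus (0.340-fold, 0.317 to 0.364), and its RPF was 0.288-fold. Gria4 was 3.00-fold higher in cortical RNA (194.2 against 64.7 CPM) and 3.60-fold in RPF, Grin3a 2.68-fold and 3.18-fold, and Gria3 1.75-fold and 2.12-fold. Past 2-fold in RNA were 2 members higher and 1 lower, where 8.46% and 9.05% of 6550 genes were, and in RPF 3 higher and 1 lower, where 10.7% and 6.73% were. On the authors' RPM scale 0 were higher in RNA, with Gria4 at a log2 change of 0.98 and Grin3a at 0.81, and 2 lower, Gria1 and Grik5 (−1.41). Gria2 (1.31-fold in RNA, 1.08-fold in RPF), Grin1 (0.863, 1.20), Grin2b (0.978, 0.826) and Grik2 (1.42, 1.85) stayed within 2-fold. Grin2a was 1.60-fold higher in cortical RNA yet 0.503-fold in RPF, and Grik5 was 0.575-fold in RNA and 1.64-fold in RPF. The hippocampal RNA was poly(A)-selected and the cortical RNA was depleted of ribosomal RNA, and that step cannot be told apart from the tissue.

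The cultures allowed a replicated comparison, of 6 DIV14 with 3 DIV10 cultures, in which most subunits were higher at DIV14. Stimuli and viruses differ among these cultures, and age cannot be told apart from the preparation of the cultures. The methods give depletion of ribosomal RNA for only 6 cultures and do not say how RNA of the others was selected. If that step differed between ages, it cannot be told apart from age in RNA or in translational efficiency. Gria1 RNA ranged from 682.0 to 973.2 CPM at DIV14 (median 862.7) and was 432.4, 461.4 and 459.5 CPM in the unstimulated, 10 min and 30 min DIV10 cultures. The groups did not overlap, and edgeR's quasi-likelihood test gave a log2 change of 0.95 (SE 0.14, Benjamini-Hochberg adjusted p = 0.000103). The share of all genes whose DIV10 and DIV14 groups did not overlap was not counted in RNA, RPF or TE. Grin2a ranged from 66.8 to 105.3 CPM at DIV14 (median 91.4) and was 40.3, 37.7 and 38.6 CPM at DIV10, again without overlap. Its log2 change was 1.25 (SE 0.19, edgeR adjusted p = 0.000194). Grin3a was at 45.2 to 75.8 CPM (median 61.4) against 26.0, 32.0 and 28.6, a log2 change of 1.21 (SE 0.22, edgeR adjusted p = 0.000777).

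Gria2 and Gria3 rose too, with DIV14 levels above all DIV10 levels. Gria2 was at 1287 to 1894 CPM (median 1652) against 748.9, 1051 and 1244 (log2 change 0.73, SE 0.16, edgeR adjusted p = 0.00267). Gria3 was at 117.9 to 169.6 CPM (median 138.8) against 97.4, 92.3 and 92.1 (log2 change 0.64, SE 0.16, edgeR adjusted p = 0.00639). Gria4 also passed, but its groups overlapped, at 200.4 to 319.2 CPM (median 233.5) against 165.4, 207.2 and 175.6. Its log2 change of 0.48 (SE 0.16, edgeR adjusted p = 0.0388) lost the call without the BDNF culture (0.0810), the unstimulated DIV10 culture (0.170), the KCl cultures (0.0529 without 10 min, 0.0825 without 30 min) or the GFP culture (0.0774).

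The remaining 4 members did not pass in RNA. Grin1 had a log2 change of 0.44 (SE 0.18, edgeR adjusted p = 0.0889), at 167.1 to 319.2 CPM against 166.2, 177.0 and 151.9. Grin2b had 0.50 (SE 0.24, edgeR adjusted p = 0.142), at 219.0 to 536.9 CPM against 196.4, 214.7 and 215.4, Grik2 0.14 (SE 0.18, edgeR adjusted p = 0.630) and Grik5 −0.04 (SE 0.18, edgeR adjusted p = 0.897). In all, 6 of 10 members rose, where 11.0% of 9010 genes were called higher, and the members' median log2 change was 0.57 against −0.01 over all genes.

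In ribosome footprints, all 10 members rose from DIV10 to DIV14, where 19.4% of 11861 genes did. Grin2a RPF was at 61.1, 64.9, 64.7 and 72.9 CPM in the unstimulated, BDNF, glu/gly and GFP cultures and at 23.7, 19.2 and 18.7 CPM at DIV10 (log2 change 1.76, SE 0.15, edgeR adjusted p = 1.06e-06). Grin2b RPF was at 593.7, 658.3, 729.3 and 602.5 CPM against 397.5, 304.3 and 382.8 (0.93, SE 0.13, edgeR adjusted p = 4.7e-05). Grik5 RPF was at 82.1, 92.0, 94.9 and 97.0 CPM against 57.1, 47.5 and 43.0 (0.98, SE 0.14, edgeR adjusted p = 8.5e-05). None of these groups overlapped, a trait whose share over all genes was not counted. Gria1 rose by a log2 change of 0.96, Gria2 by 0.74, Gria3 by 0.57, Gria4 by 0.94, Grik2 by 0.84, Grin1 by 0.56 and Grin3a by 0.64, with edgeR adjusted p from 0.000176 (Gria4) to 0.00678 (Grin1). The 10 calls also held with each culture left out in turn.

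**Figure D3:**
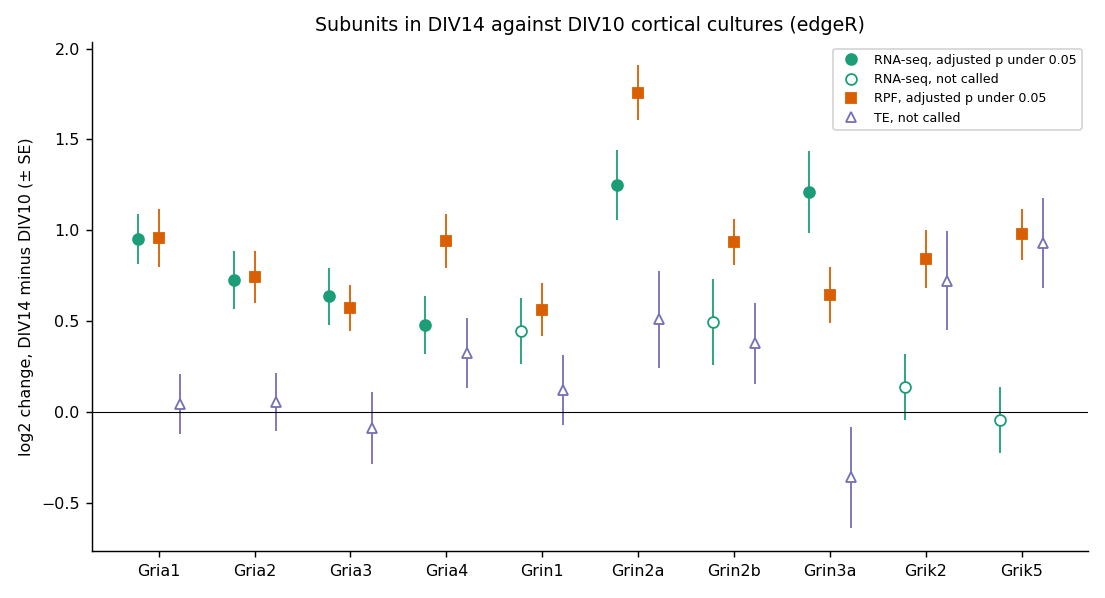
Change from DIV10 to DIV14 in RNA-seq (circles), RPF (squares) and translational efficiency, TE (triangles), on the log2 scale, for each subunit; bars are standard errors and filled symbols have an edgeR adjusted p under 0.05. All RPF symbols are filled, 6 RNA-seq symbols are filled and no TE symbol is.

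Partners of the receptors rose with them. Of 17 auxiliary or trafficking genes tested in RNA, 8 rose and 0 fell, led by Gsg1l (log2 change 2.63, SE 0.49) and Syndig1 (1.75, SE 0.30), both AMPA receptor partners, and Adarb1 (1.08, SE 0.20), an enzyme that edits Gria2 RNA. In RPF, 17 of 22 rose and 0 fell, led by Gsg1l (3.85, SE 0.32), Cacng3 (2.26, SE 0.23) and Cacng8 (1.96, SE 0.13). Of the other subunits, Grid1 (1.00, SE 0.18) rose in RNA among 4 tested, and Grik3 (1.32), Grid1 (1.14) and Grik4 (0.98) rose in RPF among 6 tested. Cell type markers moved as well. Neuron markers summed to 2866 to 2976 CPM at DIV10 and 3237 to 3906 at DIV14, and 6 of 7 rose. Astrocyte markers summed to 1428 to 1520 CPM and 707.2 to 1403, with 3 of 4 falling, and progenitor markers to 242.9 to 323.2 and 46.9 to 196.6, with 3 of 3 tested falling. Their part in the subunit changes was not tested.

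The ratio of Grin2a to Grin2b, a common measure of NMDA receptor maturation, was taken per kb. In RNA it was 0.194 to 0.453 at DIV14 and 0.178 to 0.208 at DIV10, so that the glu/gly culture, the lowest at DIV14, fell inside the DIV10 range. The mean log2 difference was 0.83, or 1.77-fold (two-sided exact permutation p = 0.0476, smallest possible 0.0238). Leaving out 1 culture at a time gave differences of 0.738 to 0.982, and the exact permutation p stayed under 0.05 only without the glu/gly culture (0.0357), rising to as much as 0.143 without either KCl culture, where 2 DIV10 cultures could not give less than 0.0714. In RPF the ratio was 0.0898 to 0.122 at DIV14 and 0.0495 to 0.0640 at DIV10, without overlap, and the difference of 0.84 had the smallest exact permutation p that 4 against 3 libraries allow, 0.0571. For scale, the RNA ratio was 0.0231 in embryonic hippocampus, 0.261 in adult hippocampus and 0.428 in adult cortex.

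TE, the RPF share of a gene over its RNA-seq share in the same sample, set Grin1 apart from its partners. In the cultures, Grin1 TE was 5.23 to 8.32, at or above the 99.6th percentile of genes with at least 10 RPM in each. It was 2.46 in adult cortex (96.6th percentile), 1.77 in adult hippocampus (89.0th) and 0.910 in embryonic hippocampus (48.8th). Gria3 TE was 1.81 to 2.36 in the cultures, 1.06 in adult cortex and 0.878 in adult hippocampus. Grin2b TE was 1.36 to 3.01 in the cultures and 0.518, 0.613 and 0.768 in cortex, adult and embryonic hippocampus. Grik5 lay at the other end in tissue, with 0.142 in adult hippocampus (3.5th percentile), 0.358 in embryonic hippocampus and 0.406 in cortex, but 0.486 to 1.40 in the cultures. Gria1 (0.768 to 1.27) and Gria2 (0.733 to 1.10) had the narrowest ranges over all 10 samples. Grin2a TE was 1.14 in adult hippocampus and 0.358 in cortex. The cultures, the cortex and the hippocampi differ in how the RNA was prepared or in tissue, and these cannot be told apart.

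Between adult and embryonic hippocampus, 7 members could be tested for TE and 2 were past 2-fold, where 22.1% of 5431 genes were. Gria4 was 0.442-fold (95% interval 0.370 to 0.526) and Grik5 0.398-fold (0.362 to 0.437) of its embryonic TE. Grin1 was 1.95-fold (1.74 to 2.18), Gria1 1.09-fold, Gria2 1.03-fold, Grin2b 0.799-fold and Grik2 0.694-fold. Gria3, Grin2a and Grin3a were under 10 RPM of RNA in the embryo. Between adult cortex and hippocampus, Grik5 TE was 2.85-fold higher (2.49 to 3.26) and Grin2a 0.314-fold (0.280 to 0.351), the 2 of 10 members past 2-fold where 12.9% of 4813 genes were. The other 8 had TE folds of 0.824 (Gria2) to 1.39 (Grin1).

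Between DIV10 and DIV14 no member passed in TE, where 0.833% of 11885 genes did, and 2 members had an unadjusted p under 0.05. Grik5 TE was 0.908, 1.38, 0.828 and 1.40 at DIV14 and 0.660, 0.561 and 0.486 at DIV10, which did not overlap (log2 difference 0.93, SE 0.25, edgeR adjusted p = 0.0667). Without the unstimulated DIV10 culture, Grik5 passed (1.03, edgeR adjusted p = 0.00621) and so did Grik2 (0.93, edgeR adjusted p = 0.0137), and without the glu/gly culture Grik5 passed (1.10, edgeR adjusted p = 0.0267). With all cultures Grik2 had 0.72 (SE 0.27, edgeR adjusted p = 0.286), Grin2a 0.51, Grin2b 0.38, Gria4 0.33, Grin1 0.12, Gria2 0.06, Gria1 0.04, Gria3 −0.09 and Grin3a −0.36. Of the partner genes, Cacng8 rose in TE (1.11, SE 0.24, edgeR adjusted p = 0.0208).

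Grin1 also had long tails, with means of 120.1 to 140.5 nt in the 9 cultures, 18.4 to 36.9 nt above the library median. These lay at the 91.6th to 99.5th percentile of genes with at least 50 tags. In the KCl 30 min culture Gria3 had longer tails than Grin1 (128.3 against 124.6 nt). In adult cortex Grin1 had 112.9 nt (88.5th percentile). Its percentile in visual cortex was 85.9 to 92.8 in dark mice and 58.5 to 81.1 in light mice. Gria1, at 95.6 to 107.5 nt, and Gria2, at 89.5 to 101.8 nt, were below the median of every culture, by 1.33 to 9.65 nt and 1.34 to 16.1 nt. Gria3 had 111.6 to 128.3 nt in the 5 cultures where it reached 50 tags, 8.63 to 22.1 nt above the median. In adult hippocampus, where the deposited values are multiples of 0.5 nt and were taken as medians, Gria1 had 37.0 nt (5.8th percentile) and Gria2 32.0 nt (2.8th percentile), against a gene median of 54.0 nt. No member reached 50 tags in the embryonic hippocampus.

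Between DIV10 and DIV14, limma called no tail difference among the 3 members tested, where 0.00% of 1630 genes were called, and 0 members had an unadjusted p under 0.05. The differences were 4.48 nt (SE 3.80) for Gria2, 3.97 nt (SE 3.74) for Gria1 and −0.13 nt (SE 4.29) for Grin1, with limma adjusted p of 0.986, 0.986 and 0.996.

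Grin2a and Grin2b, with the longest 3′ UTRs of the members, were almost missing from the tail tags. In the unstimulated DIV14 culture both had 0 tags, which allows up to 2.88 CPM of tags, while genes of like RNA level had medians of 47 and 139 tags. Of those genes, 2.97% and 1.56% had no more tags. In adult cortex they had 1 and 7 tags, where genes of like RNA level had medians of 123 and 240, and in visual cortex Grin2a had 0 tags in all 8 mice and Grin2b 0 to 9. RNA-seq reads were counted on the coding sequence, and tags by overlap with an annotated 3′ UTR. Both subunits stayed under the minimum of 50 tags in every library, so no tail length and no tag ratio of them was given. Gria4, with a 3′ UTR of 2256 nt, was low in tags too. It had 26 in the unstimulated DIV14 culture, where genes of like RNA level had a median of 140.5. The cause of the missing tags was not tested.

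Stimulation was compared within single libraries, with the BDNF and glu/gly cultures sharing 1 unstimulated control and both KCl cultures another. The immediate early genes Fos, Arc, Npas4, Egr1 and Nr4a1 summed to 62.9 CPM unstimulated, 1362 with BDNF and 728.1 with glu/gly, and to 44.5, 92.3 and 424.6 CPM at DIV10 with 0, 10 and 30 min of KCl. The subunits moved far less. With glu/gly, Grin2b RNA was at 536.9 CPM against 235.9 (2.28-fold, 1.84 to 2.83), Grin1 at 319.2 against 167.1 (1.91-fold, 1.47 to 2.496) and Grin2a at 103.1 against 66.8 (1.54-fold, 0.999 to 2.42). These 3 of 10 members were past 1.5-fold, where 17.3% of 5706 genes were. Their RPF was 1.23-fold, 1.28-fold and 1.06-fold, and 0 members were past 1.5-fold in RPF, where 4.63% of 5705 genes were. Grin2b TE was 0.540-fold (0.434 to 0.671), the 1 of 9 members tested past 1.5-fold in TE, where 12.5% of 4731 genes were. The other TE folds ran from 0.668 for Grin1 (0.516 to 0.865) to 1.49 for Grik2. RNA folds of the other 7 members were 0.747 for Grik2, 0.873 for Gria4, 1.24 for Gria2, 1.27 for Grik5, 1.30 for Gria1, 1.44 for Gria3 and 1.47 for Grin3a. Their RPF folds were 1.11 for Grik2, 1.13 for Gria4, 1.16 for Grik5, 1.25 for Grin3a, 1.28 for Gria1, 1.34 for Gria3 and 1.40 for Gria2.

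With BDNF, 0 of 10 members were past 1.5-fold in RNA or RPF, where 12.7% of 5630 and 3.52% of 5629 genes were. RNA folds ran from 0.703 for Grik2 (0.483 to 1.01) to 1.47 for Grin2a (0.924 to 2.35), with Grik5 at 0.738, Grin2b at 0.928, Gria1 at 1.07, Gria2 at 1.15, Gria4 at 1.22, Gria3 at 1.24, Grin3a at 1.25 and Grin1 at 1.29. RPF folds ran from 1.04 for Grik2 and 1.06 for Grin2a to 1.28 for Gria2 (1.23 to 1.33), with Grin2b, Gria3, Gria4 and Grik5 at 1.11 to 1.12 and Gria1, Grin1 and Grin3a at 1.19 to 1.24. Grik5 TE was 1.52-fold (0.944 to 2.44), the 1 of 9 members tested past 1.5-fold in TE, where 7.82% of 4705 genes were. The other TE folds lay between 0.724 (Grin2a) and 1.48 (Grik2). With KCl, 8 members could be tested, since Grin2a and Grin3a did not reach 10 RPM. After 10 min, Grik2 RNA was 1.67-fold higher (1.24 to 2.23; 158.2 against 94.9 CPM) while its RPF was 0.737-fold (0.623 to 0.869), and after 30 min its RNA was 1.06-fold. After 30 min, Gria2 RNA was 1.66-fold higher (1.52 to 1.82; 1244 against 748.9 CPM). These were 1 of 8 members at each time, where 7.58% of 5556 and 21.5% of 5058 genes were past 1.5-fold. On the authors' RPM scale Gria2 was not past it after 30 min (log2 change 0.23) and Grin1 was, in the lower direction (−0.63). In TAIL-seq tags Gria2 was past 1.5-fold higher, at 352 tags of 776935 after 30 min against 149 of 604775 unstimulated. In RPF, 0 of 8 were past it, where 14.0% and 14.8% were, and the highest folds after 30 min were those of Gria1 (1.46, 1.38 to 1.55), Grin1 (1.45, 1.40 to 1.51) and Gria2 (1.41, 1.35 to 1.47). The other KCl folds in RNA lay between 0.914 (Grin1, 30 min) and 1.40 (Gria2, 10 min). After 10 min, RPF was 0.766-fold for Grin2b, 0.832-fold for Grik5, 0.927-fold for Gria3, 0.989-fold for Gria4, 1.14-fold for Gria2, 1.17-fold for Gria1 and 1.30-fold for Grin1. After 30 min it was 0.753-fold for Grik5, 0.912-fold for Gria4, 0.963-fold for Grin2b and 1.00-fold for both Gria3 and Grik2. In TE, Grik2 was 0.442-fold (0.319 to 0.612) after 10 min and Grin1 1.59-fold (1.27 to 2.00) after 30 min. Each was the 1 of 8 members past 1.5-fold, where 21.8% of 4734 and 27.0% of 3535 genes were. The other TE folds lay between 0.700 (Grin2b, 10 min) and 1.38 (Gria1, 30 min).

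Of tails in stimulated cultures, Grik5 differed past 10 nt, with 125.4 nt unstimulated, 111.7 nt with BDNF (−13.8 nt) and 107.7 nt with glu/gly (−17.7 nt), from 64 to 79 tags each. It was 1 of 5 members tested in each, where 15.3% of 4098 and 23.0% of 3516 genes were past 10 nt and the median gene differed by −1.04 and −4.68 nt. Grin1 had 140.5 nt at DIV10 unstimulated, 131.2 nt after 10 min of KCl and 124.6 nt after 30 min (−15.9 nt), 0 and 1 of 3 members past 10 nt, where 15.4% of 2543 and 16.0% of 2815 genes were. The other members tested differed by −8.56 nt (Grin1, glu/gly) to 3.46 nt (Gria3, BDNF).

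The lentiviral cultures shared the GFP culture as control. With miR-155, the members that carry the seed matches printed above were near 1: Gria2 RNA was at 1702 CPM against 1770 (0.962-fold, 0.890 to 1.04), Grin2a at 81.5 against 84.8 (0.961-fold, 0.673 to 1.40) and Grin2b at 244.4 against 236.6 (1.03-fold, 0.837 to 1.29). Gria4, which has no match, was the 1 of 10 members past 1.5-fold, at 200.4 CPM against 319.2 (0.628-fold, 0.518 to 0.764), where 11.2% of 4890 genes were. The other 6 were Gria1 at 0.978-fold, Grin1 at 1.05, Gria3 and Grik5 at 1.18, Grik2 at 1.42 and Grin3a at 1.48. With miR-1, 0 of 10 were past 1.5-fold, where 14.8% of 5227 genes were, from 0.712 for Gria4 (0.574 to 0.885) to 1.47 for Grin3a (0.908 to 2.46). Between them were Gria1 at 0.862, Grik5 at 0.970, Gria3 at 0.972, Grin2b at 1.00, Gria2 at 1.07, Grik2 at 1.23, Grin2a at 1.24 and Grin1 at 1.26. Gria2 tails were 89.5 nt with GFP and 100.8 nt with miR-155 (11.2 nt longer), 1 of 3 members past 10 nt where 15.2% of 1783 genes were. Grin1 tails were 135.1 nt with GFP and 120.1 nt with miR-1 (−15.0 nt), 1 of 3 members past 10 nt. With miR-1 14.9% of 1748 genes were shorter and 5.09% longer by more than 10 nt, and the median gene differed by −2.52 nt. The other tails of the 3 members differed by −4.83 nt (Grin1, miR-155) to 6.31 nt (Gria2, miR-1).

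In visual cortex, no subunit level passed the test between dark and light. The same 5 early genes summed to 166.2 to 723.1 CPM of tags in the dark and 2599 to 4656 in the light. Of 8 members tested, edgeR called 0, with 0 at an unadjusted p under 0.05, where 1.34% of 9554 genes were called, and DESeq2 also called 0. Gria3, whose product forms receptors mainly with Gria2, was at 161.4, 161.9, 149.1 and 157.8 CPM of tags in dark mice and 155.6, 207.5, 181.9 and 171.7 in light mice, which overlap (log2 change 0.21, SE 0.10, edgeR adjusted p = 0.540). Grin1 was at 121.1, 138.0, 112.4 and 93.4 in the dark and 122.4, 148.1, 162.5 and 107.0 in the light (0.22, SE 0.14, edgeR adjusted p = 0.671). Gria2 was the highest of the members by tags, at 613.4 ± 68.6 in the dark and 599.5 ± 59.4 in the light (SD, n = 4 each), and Gria1 was at 266.5 ± 22.9 and 274.1 ± 35.5. The log2 changes of the others were 0.37 for Grik2, 0.19 for Gria4, 0.07 for Gria1, −0.01 for Gria2, −0.02 for Grin3a and −0.10 for Grik5.

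Tail lengths after light were tested for the 5 members with 50 tags in every mouse. limma called none, with 0 at an unadjusted p under 0.05, where 0.231% of 4321 genes were called. Gria3 had 90.6, 88.0, 70.7 and 76.4 nt in the dark and 87.0, 99.5, 104.1 and 83.98 nt in the light, a difference of 12.2 nt (SE 6.68, limma adjusted p = 0.999). Gria2 differed by 7.02 nt, Gria1 by 3.11 nt, Grik5 by 2.83 nt and Grin1 by −2.67 nt. The median tail of a library itself ranged from 77.5 to 92.4 nt in the dark and 81.6 to 97.8 nt in the light, and taking it off, a step chosen after the data were seen, brought out 2 members.

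Relative to that median, Gria3 tails were −1.76, −2.59, −6.71 and −3.50 nt in the dark and 3.68, 5.41, 6.28 and 2.40 nt in the light, which do not overlap. Grin1 tails went the other way, 16.6, 12.0, 10.8 and 12.3 nt above it in the dark and 2.71, 9.05, 10.7 and 2.09 nt in the light, where the nearest values were 10.8 and 10.7 nt. The differences were 8.08 nt for Gria3 and −6.79 nt for Grin1, and neither passed (limma adjusted p = 0.244 and 0.432). These 2 of 5 members compare with 6.06% of 4321 genes whose groups did not overlap on that scale.

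**Figure D4:**
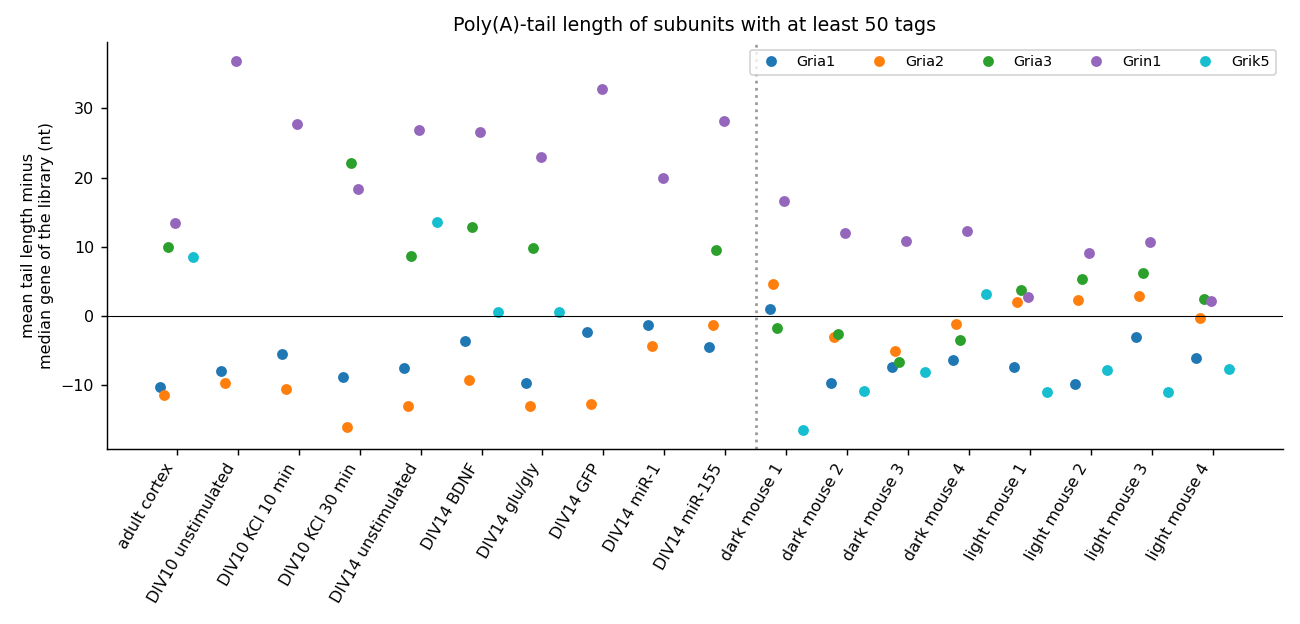
Mean poly(A)-tail length minus the median gene of the same library, in nt, for the 5 subunits with at least 50 tags in every visual cortex library; adult cortex and cultures (TAIL-seq) lie left of the dotted line and the 8 visual cortex mice (PAL-seq) right of it. Grin1 is above 0 in all libraries, and Gria3 is below 0 in the 4 dark mice and above 0 in the 4 light mice.

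Across the 12 RNA-seq libraries, the genes whose log2(CPM + 1) followed a subunit most closely among 9967 genes were named for 4 members, as a description over libraries that share depth and preparation. For Gria2 they were Cntn1 (Pearson r 0.99), Gda (0.99) and Kcnj4 (0.99), and for Gria1 Klhl2, Dgkg and Cpne7 (0.94 each). For Grin2a they were Zfp365, Prkcb and Snap25 (0.99 each), and for Grin2b Synj1 (0.98), Slc6a17 (0.96) and Cacna1e (0.96). The embryonic hippocampus was the lowest of the 12 libraries for each of these 4 members.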

How the data were processed

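The deposited RNA-seq and RPF values were read counts per transcript, which the authors took over the coding sequence without its first 50 nt, with an RPM value and, in most files, a log2 TE that the authors computed. Gene reads made up 13.8% to 46.1% of the authors' RPM total for RNA-seq and 51.3% to 79.5% for RPF. The deposited tail files of the authors give, for each transcript, a tag count and its tail length (nt). The submitters' processing notes name STAR 2.4.2, bedtools and mm10. RNA from both hippocampi was poly(A)-selected, and RNA from adult cortex and 6 cultures was depleted of ribosomal RNA. For the other cultures the methods do not state the selection. Symbols were found for 17010 of 17158 accessions.

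The 10 members and the gene lists were chosen with earlier results of these data known, and the rule was to name all 10 members in each comparison, some of them by a range. Of the other 2 receptor lists, the 3 largest changes in each direction were named, among those called in replicated comparisons and those past 2-fold between both hippocampi. Counts were tested with edgeR 4.0.16 (quasi-likelihood, TMM, filterByExpr) in R 4.3.3 across all genes, TE as the interaction of assay and age in the same kind of model, and tail lengths of genes with at least 50 tags in every library with limma 3.58.1, each with Benjamini-Hochberg adjustment at 0.05. Single libraries were compared by the ratio of their CPM with exact binomial 95% intervals. Folds in TE between libraries instead had 95% intervals from a normal approximation on the log scale. Genes needed at least 10 RPM of RNA in either library (in both for TE). They were counted past 2-fold between tissues, 1.5-fold for stimuli and viruses and 10 nt for tails. The ratio of Grin2a to Grin2b was tested with an exact permutation test. The fits were tested on simulated data. Alternatives were DESeq2 1.42.0, other scalings, filters and tag minimums, a replicate block and leaving out each library.

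The visual cortex libraries carry sample numbers 1 to 4 in both groups. Deviations of same-numbered samples correlated at 0.049, −0.19, −0.13 and −0.077 over 8290 genes, so the numbers were not taken as pairs. Reads without molecular identifiers are not independent molecules, so intervals and floors cover counting error only. PAL-seq tags numbered 1233538 to 4812273 in visual cortex and 221876 and 86841 in adult and embryonic hippocampus, and TAIL-seq tags 389654 to 1057812. RPF libraries of the miR-1 and miR-155 cultures have titles that contradict each other and entered no comparison.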

Additional observations from a re-analysis of the deposited data

Results flagged for a closer look

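Among 69 groups of 4 or 6 libraries, 4 held a library whose gap to its nearest neighbour was past Dixon's critical value, and chance gives about 1 in 20. Grin2b RNA in the glu/gly culture was at 536.9 CPM, the highest of 6 DIV14 cultures, with the others at 219.0 to 244.4. Grin3a TE was 0.791 in the same culture, the lowest of 4 DIV14 cultures, with the others at 0.918 to 0.928. The counting interval of this lowest value, from 40 RNA reads, was 0.555 to 1.15. It covered the other values, so the gap lay within counting error. In the unstimulated and GFP cultures Grin3a had 23 RNA reads each, under the minimum of 10 RPM used for TE folds between libraries. Grik5 was at 83.7 CPM of tags in dark mouse 2, whose library was the deepest, with the other dark mice at 98.4 to 100.7. Grin3a was at 20.8 CPM of tags in light mouse 4, with the other light mice at 9.73 to 11.5. Their causes were not tested.

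Both RPF libraries of miRNA cultures with contradictory titles entered no comparison. All 10 members were above 3 reads in each, 10 of 10 in the library whose title starts with mi1 and 10 of 10 in the one that starts with m15. Gria2 was at 1234 CPM in mi1 and 1512 CPM in m15, Grin1 at 1108 and 1218, Grin2b at 575.2 and 676.4, Grin2a at 61.2 and 72.8, and Gria4 at 129.7 and 147.9.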

How the results depend on the processing

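Of 543 values of single members under alternatives, 527 kept their side of the threshold, 8 fell below it, 7 passed it and 1 turned: Grik5 between DIV10 and DIV14 rose by 0.53 in TAIL-seq tags (edgeR adjusted p = 0.0455). A further 30 values with no call changed sign. Members called between DIV10 and DIV14 numbered 5 to 8 in RNA and 10 in RPF under every alternative; in TE they ranged from 0 to 2 with each culture left out. The log2 difference of the Grin2a to Grin2b ratio ranged from 0.738 to 0.982 with each culture left out and was 0.84 in RPF (exact permutation p = 0.0571). In PAL-seq tags, only Gria1, Gria2 and Gria3 reached 20 tags in adult or embryonic hippocampus, and all 3 were past 2-fold higher in the adult. No share over all genes was counted for PAL-seq or TAIL-seq tags, or on the authors' RPM scale, so member counts there have no background. With the authors' RPM as the scale, members past 1.5-fold in RNA numbered 5 with glu/gly, 2 with 10 min of KCl and 3 with miR-1, and 1 in RPF with 10 min of KCl. In TAIL-seq tags, among members with at least 20 tags in either library, they numbered 1 with glu/gly, 1 with miR-1 and 4 with miR-155. With glu/gly it was Grin3a, higher (29 tags against 22 in the smaller and larger library), and not Grin1 (222 against 228). With miR-1 it was Grik5, higher (42 against 20). With miR-155 Grin1, Grin3a and Grik5 were higher, and Grik2 was lower (13 against 20), whereas its RNA was 1.42-fold. Grin2a and Grin2b had too few tags, as had Gria4 with miR-155 (11 against 13). After KCl, Gria2 tags were past 1.5-fold higher at both times. They were 226 of 574544 after 10 min and 352 of 776935 after 30 min, against 149 of 604775 unstimulated. With 20 tags as the minimum, members past 10 nt numbered 2 with BDNF, 3 with glu/gly, 2 with miR-1 and 3 with miR-155. Over all genes, those longer and shorter by more than 10 nt then numbered 751 and 966 of 6710 with BDNF and 436 and 1644 of 6267 with glu/gly. With miR-1 they numbered 438 and 838 of 3863, and with miR-155 550 and 656 of 3965. With 100 tags, members past 10 nt numbered 0 with BDNF, 0 with glu/gly and 0 with miR-1. Genes longer and shorter were then 50 and 115 of 2270, 20 and 283 of 1857, and 15 and 72 of 754. The cause of these shifts was not tested, apart from the fewer members that a higher minimum leaves.

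The replicate block called 113 genes against 128 for light expression and 1 against 10 for light tails, with 0 members each time, and changed no member's call. Over all genes, light expression called 192 without a filter, light tails 1 to 21 (3 minus the library median, 1 on the log2 scale), TE 17 to 679 against 99 (27 at 10 RPM, 23 with the authors' TE), tails of the cultures 10 minus the library median against 0, and RNA 1053 without lentiviral cultures against 1928. No light or TAIL-seq tag ratio of Grin2a to Grin2b was run, since Grin2a had 0 tags. Low RNA-seq depth in the cultures, and few tags in the embryonic hippocampus, limit the scarce subunits most.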

Other observations

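Partner genes did not pass the test after light either. Of 5 other subunits tested in visual cortex edgeR called 0, and of 17 auxiliary or trafficking genes 0, and among the tails of 9 auxiliary genes limma called 0.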
